A study of Sus scrofa with 48 samples.

Results

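The proteasome subunit genes were examined in longissimus muscle of pigs, on 1-colour Agilent oligonucleotide arrays of 60305 distinct probes with 1 pig per array. Members were chosen by name: every non-control probe whose gene symbol, as the array design gives it, starts with PSMA to PSMG followed by a digit. This took in 115 probes of 46 genes, and 112 probes of 45 genes rose well above background on 12 or more of the 48 arrays and were tested, against 8823 tested genes of the whole array whose symbol is in the RefSeq table. PSMC3IP, a recombination factor whose name only looks like that of a subunit, came in by the same rule and is given apart, which leaves 111 probes of 44 proteasome genes. Of the tested probes, 109 were well above background on all 48 arrays. The exceptions were 1 probe each of PSMA3 (47 arrays), PSMF1 (26 arrays) and PSMB2 (20 arrays). The 3 probes that did not pass were 1 each of PSMB8 (3 arrays), PSMD5 (1 array) and PSMC3IP (2 arrays). The array held no probe named PSMA1, PSMA7 or PSMA8.

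All pigs were castrated males of purebred Large White lines, selected in opposite directions on residual feed intake (RFI). This is the difference between the feed a pig eats and the feed predicted from its growth and fatness. The low RFI line is the efficient one, and the high RFI line the inefficient one. Within each line 12 pigs ate freely from a high fat, high fiber diet (HF) and 12 from one low in both (LF), which gives 4 groups of 12 pigs. The paper describes the diet that was not rich in fiber and lipids as standard, and also as a control diet. The labels give no age, and no group outside these lines and diets was part of the design. Each line is a single selected population, so that selection and drift between the lines cannot be told apart. The arrays lay on 6 slides with 2 arrays of each group per slide and were scanned on 2 days with 6 arrays of each group per day. Of all probes on an array, 59.2 to 74.2% were well above background, no spot was saturated, and the median processed signal of an array was 52.8 to 107.9. Arrays of 1 group correlated at 0.97 to 0.99, and 2 arrays of high RFI pigs on HF (replicates 6 and 10) stood farthest from the others. Levels are log2 signals relative to the mean of the tested probes of the same array, so that 1 unit is a doubling, and levels of different probes are not set against each other. The mean level of 78 probes of 11 skeletal muscle fibre genes lay between 8.68 and 9.20 in the 48 pigs.

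The proteasome degrades proteins that carry ubiquitin chains. Its barrel-shaped 20S core is built from outer α rings (PSMA genes) and inner β rings (PSMB genes), and the 19S cap, with ATPase subunits (PSMC genes) and non-ATPase subunits (PSMD genes), recognises and unfolds the substrate. The proteolytic sites sit in PSMB5, PSMB6 and PSMB7, and in cells exposed to interferon these are replaced in newly made particles by PSMB8, PSMB9 and PSMB10, which form the immunoproteasome and supply peptides to MHC class I molecules. In skeletal muscle the ubiquitin-proteasome pathway is the main route by which contractile proteins are broken down.

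The line differences turned on few genes, and probes of the catalytic subunits PSMB6 and PSMB8 are shown here because they moved in opposite directions. Sequences are from the array design, 60 bases each, 5′ to 3′. For PSMB8 the capitals mark 37 bases that 2 of its probes share.
PSMB6 A_72_P073716: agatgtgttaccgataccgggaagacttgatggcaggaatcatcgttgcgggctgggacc
PSMB6 A_72_P621004: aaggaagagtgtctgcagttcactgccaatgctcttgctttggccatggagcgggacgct
PSMB8 A_72_P444948: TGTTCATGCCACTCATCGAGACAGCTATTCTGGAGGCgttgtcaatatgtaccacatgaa
PSMB8 A_72_P564399: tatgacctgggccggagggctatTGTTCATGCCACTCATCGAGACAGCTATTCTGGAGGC
PSMB8 A_72_P088176: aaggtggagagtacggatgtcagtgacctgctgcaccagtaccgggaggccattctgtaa

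Between the lines, 5 of the 112 member probes were higher and 14 lower in high RFI pigs at a Benjamini-Hochberg adjusted p under 0.05 over all 42125 tested probes (limma). That is 4.46% higher and 12.5% lower, beside 6.57% and 9.85% of all tested probes (16.4% in either direction), and both shares lie near the background. The median difference between the lines (high minus low RFI, averaged over the diets) was -0.03 over the members and -0.03 over all tested probes, with 60.7% of members and 58.2% of all probes below 0. The calls fell on 8 proteasome genes, namely PSMA4, PSMB6, PSMB8, PSMD1, PSMD13, PSME1, PSMF1 and PSMG4, and on PSMC3IP. Of these, PSMF1 was read by a single dim probe that was above background mainly in the low RFI line, and its call is given no weight. The probe remains in the counts and shares of lower members between the lines and on HF. On the HF diet alone, 7 members were lower and none was higher in high RFI pigs (6.25% lower, beside 6.39% of all probes called, 4.03% lower and 2.36% higher). On the LF diet alone, 2 members were lower and none was higher (1.79% lower, beside 2.47% of all probes called, 1.34% lower and 1.13% higher). The difference had the same sign on both diets, which share no pigs, for 76 members (67.9%) and for 70.6% of all probes.

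**Figure D1:**
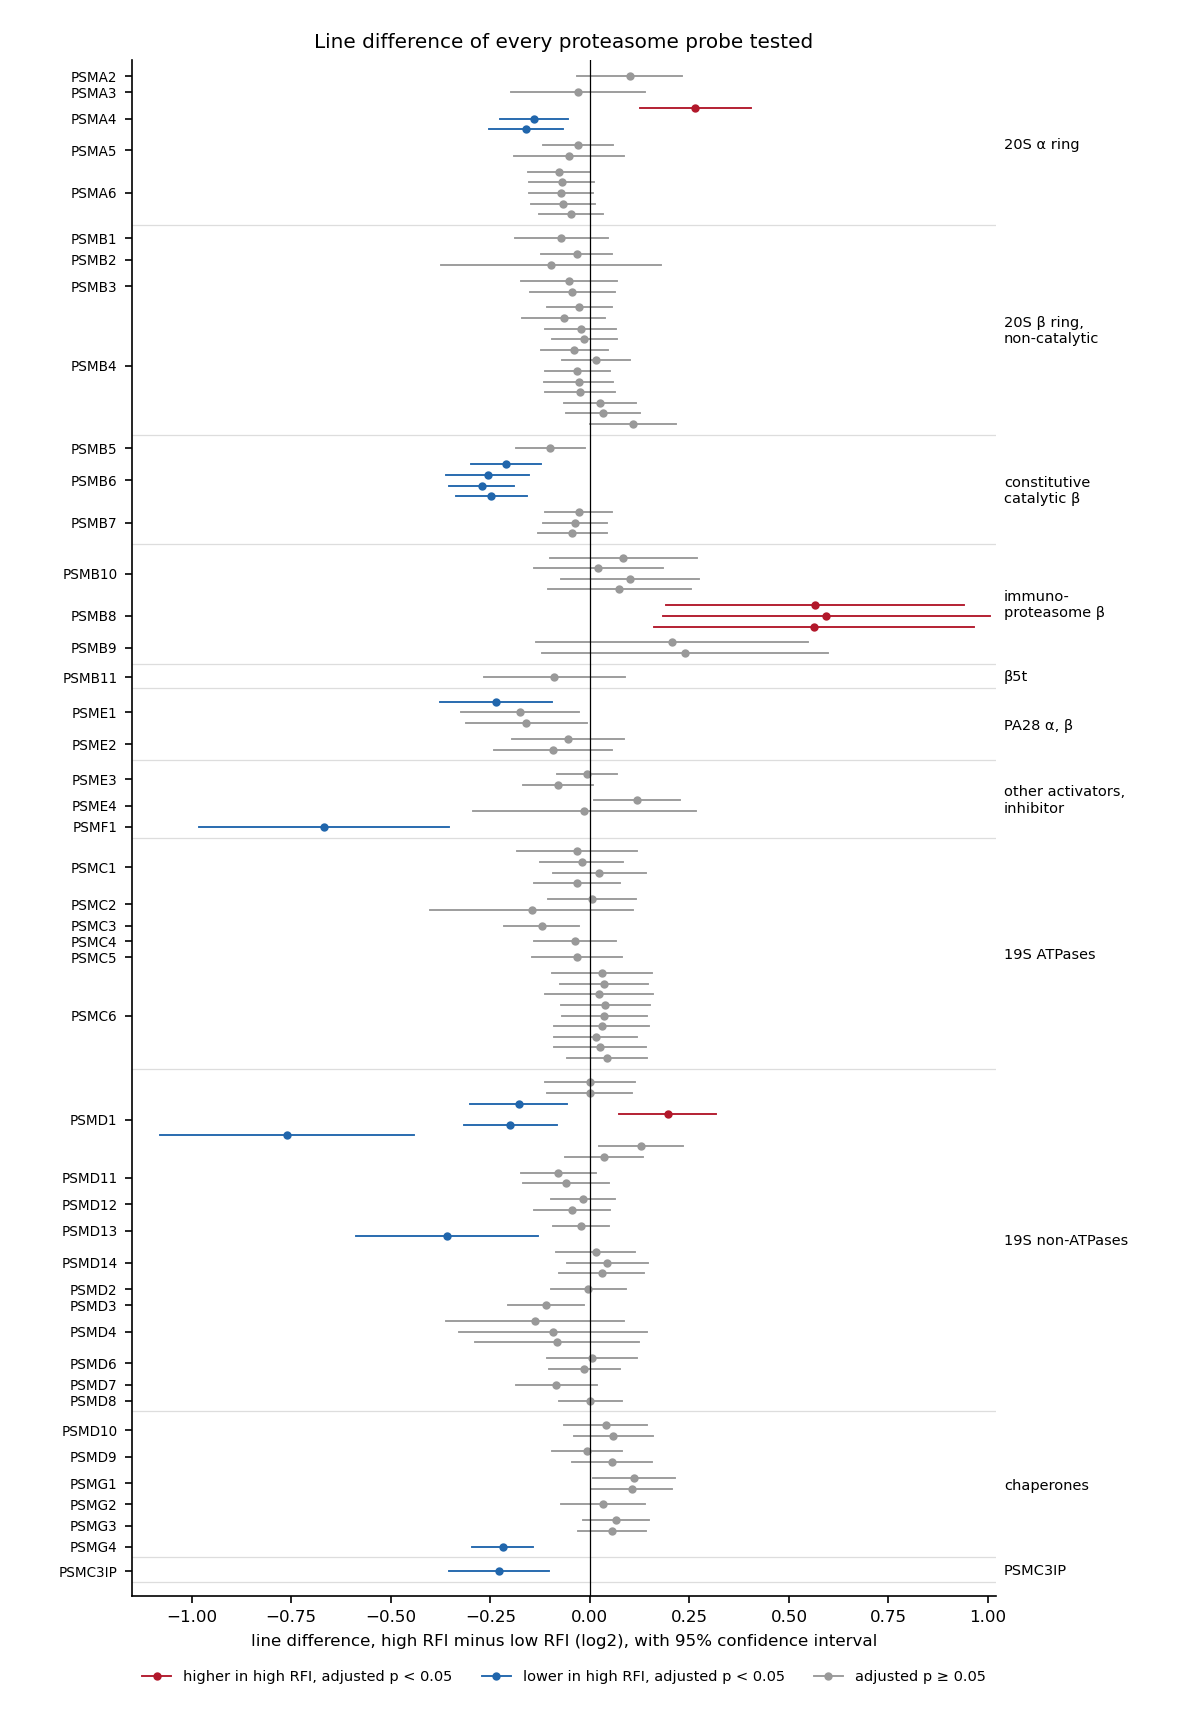
Each point is the difference between the lines (high minus low RFI, log2 units, n = 24 pigs a line) of 1 tested probe, by structural group. The 4 PSMB6 probes lie between -0.27 and -0.21 and the 3 PSMB8 probes between 0.56 and 0.59, while most members lie close to 0.

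The diet moved no member past the threshold in limma (0 of 112, beside 0.42% of all tested probes). At an unadjusted limma p under 0.05 there were 4 of 112 member probes, a smaller share than the 5513 of all 42125 tested probes. All 4 were lower on HF, namely the 3 probes of PSMB7, the trypsin-like catalytic subunit, and 1 of PSMD9, an assembly chaperone of the 19S base. The member nearest to the threshold was a PSMB7 probe (A_72_P607493), which differed by -0.12 (SE 0.04, HF minus LF, limma adjusted p = 0.16). For the line by diet term no member passed (0 of 112 by limma, beside 0% of all tested probes), and the smallest adjusted p among members was 0.999. At an unadjusted limma p under 0.05 there were 0 members, beside 1875 of all 42125 tested probes.

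Among the constitutive catalytic subunits, PSMB6 was lower in high RFI pigs with each of its 4 probes. PSMB6 carries the caspase-like activity of the core. On HF the level of the representative probe (O9283) was 6.67 to 7.16 (median 7.01) in low RFI pigs and 6.45 to 7.03 (median 6.71) in high RFI pigs. On LF it was 6.72 to 7.14 (median 7.02) in low RFI pigs and 6.58 to 6.96 (median 6.79) in high RFI pigs. The lines overlapped on both diets, with the medians of the high RFI groups below those of the low RFI groups. Between the lines the level fell by 0.25 (SE 0.04, limma adjusted p = 0.000115), and within each of the 6 slides the difference was -0.32 to -0.18. The other 3 PSMB6 probes gave -0.21, -0.26 and -0.27 (limma adjusted p = 0.000801, 0.000585 and 9.18e-06), which is a level 1.16 to 1.21 times higher in low RFI pigs. Across pigs of 1 group the 4 probes moved together, with correlations of 0.87 to 0.93 between probes.

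PSMB5, the chymotrypsin-like subunit, was at 3.83 to 4.27 (median 4.03) in low RFI pigs and 3.51 to 4.24 (median 3.88) in high RFI pigs on HF, and at 3.82 to 4.18 (median 4.05) in low RFI pigs and 3.70 to 4.22 (median 3.97) in high RFI pigs on LF. Its ranges overlapped widely. The difference of -0.10 (SE 0.04, limma adjusted p = 0.106) had a 95% interval of -0.19 to -0.01 and did not pass. PSMB7 was at 4.50 to 5.02 (median 4.83) in low RFI pigs and 4.55 to 5.05 (median 4.79) in high RFI pigs on HF, and at 4.81 to 5.17 (median 4.95) in low RFI pigs and 4.72 to 5.07 (median 4.90) in high RFI pigs on LF. Its 3 probes differed between the lines by -0.03 to -0.04 (limma adjusted p = 0.516 to 0.68). All 8 constitutive catalytic probes lay below 0, with a median of -0.16, but the 4 that passed were all of PSMB6. Beside these values, 18 of 78 muscle fibre probes were lower and 0 higher in high RFI pigs, with a median of -0.09. Of all tested probes, 9.85% were lower. The muscle fibre calls were on CKM (6 of 11 probes), MYH4 (5 of 10), TNNT3 (3 of 5), MYH2 (2 of 5), TNNC2 (1 of 6) and TTN (1 of 2). No call was on ACTA1 (17 probes), MYH7 (9), MYH1 (8), DES (4) or MB (1). The part of the muscle fibre genes in the PSMB6 result was not tested.

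PSMB8, the immunoproteasome counterpart of PSMB5, was higher in high RFI pigs with all 3 tested probes. On HF the level of the representative probe (A_72_P444948) was -1.52 to 0.65 (median -0.42) in low RFI pigs and -0.99 to 1.28 (median 0.15) in high RFI pigs. On LF it was -1.10 to 1.45 (median -0.47) in low RFI pigs and -0.74 to 1.96 (median 0.17) in high RFI pigs. Pigs of 1 group spanned more than 2 units, so the groups overlapped over most of their range, and the shift showed in the medians. The difference was 0.59 (SE 0.20, limma adjusted p = 0.0383), a 1.51-fold higher level. The other probes gave 0.57 (SE 0.19, limma adjusted p = 0.0303) and 0.56 (SE 0.20, limma adjusted p = 0.0456). Within each slide the difference of the representative probe was 0.07 to 1.78, and it was 0.91 on 1 scan day and 0.28 on the other. On each diet alone it did not pass (0.56 on HF with limma adjusted p = 0.229, 0.63 on LF with 0.25). The call stood close to the threshold: when each pig was left out in turn the 3 probes passed in 33, 47 and 20 of 48 fits, in the order named, and without high RFI LF replicate 7 the adjusted p of the 3 was 0.0634, 0.0508 and 0.0746. Without any filter on dim probes none of the 3 passed (limma adjusted p = 0.0719, 0.0556 and 0.0807, with differences of 0.60, 0.57 and 0.57). A_72_P564399 also missed the threshold in the deposited table (0.47, limma adjusted p = 0.051) and without the 2 arrays that stood apart (0.58, 0.0516).

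PSMB9 and PSMB10, which replace PSMB6 and PSMB7 in the immunoproteasome, did not pass. PSMB9 (A_72_P035551) was at 1.29 to 2.95 (median 1.91) in low RFI pigs and 1.49 to 3.43 (median 2.33) in high RFI pigs on HF, and at 1.48 to 4.23 (median 1.97) in low RFI pigs and 1.55 to 3.50 (median 2.17) in high RFI pigs on LF. Its difference was 0.21 (SE 0.17, limma adjusted p = 0.426), with a 95% interval of -0.14 to 0.55. Without low RFI LF replicate 11 the 2 PSMB9 probes differed by 0.30 and 0.34 and still did not pass (limma adjusted p = 0.158 and 0.131). PSMB10 (A_72_P644145) was at 3.002 to 3.68 (median 3.27) in low RFI pigs and 2.94 to 4.05 (median 3.37) in high RFI pigs on HF, and at 2.95 to 4.61 (median 3.25) in low RFI pigs and 3.01 to 3.97 (median 3.38) in high RFI pigs on LF, where 1 pig stood well above the others. The 4 PSMB10 probes differed by 0.02 to 0.10 between the lines (limma adjusted p = 0.449 to 0.888). These differences were lowered by 1 low RFI LF pig, replicate 11: without it they were larger, at 0.07 to 0.15. The smallest of them (A_72_P024281) lay at -0.0014 when another pig was left out. None passed in any of these fits. All 9 immunoproteasome probes lay above 0 with all pigs included, with a median of 0.21. They read only 3 genes, and probes of 1 gene correlated at 0.95 to 0.99 within groups, so they are not independent of each other. In the RefSeq annotation (Sscrofa11.1) PSMB8 and PSMB9 lie beside the peptide transporter genes TAP2 and TAP1 in the class II region of the swine leukocyte antigen complex, whereas PSMB10 lies elsewhere.

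**Figure D2:**
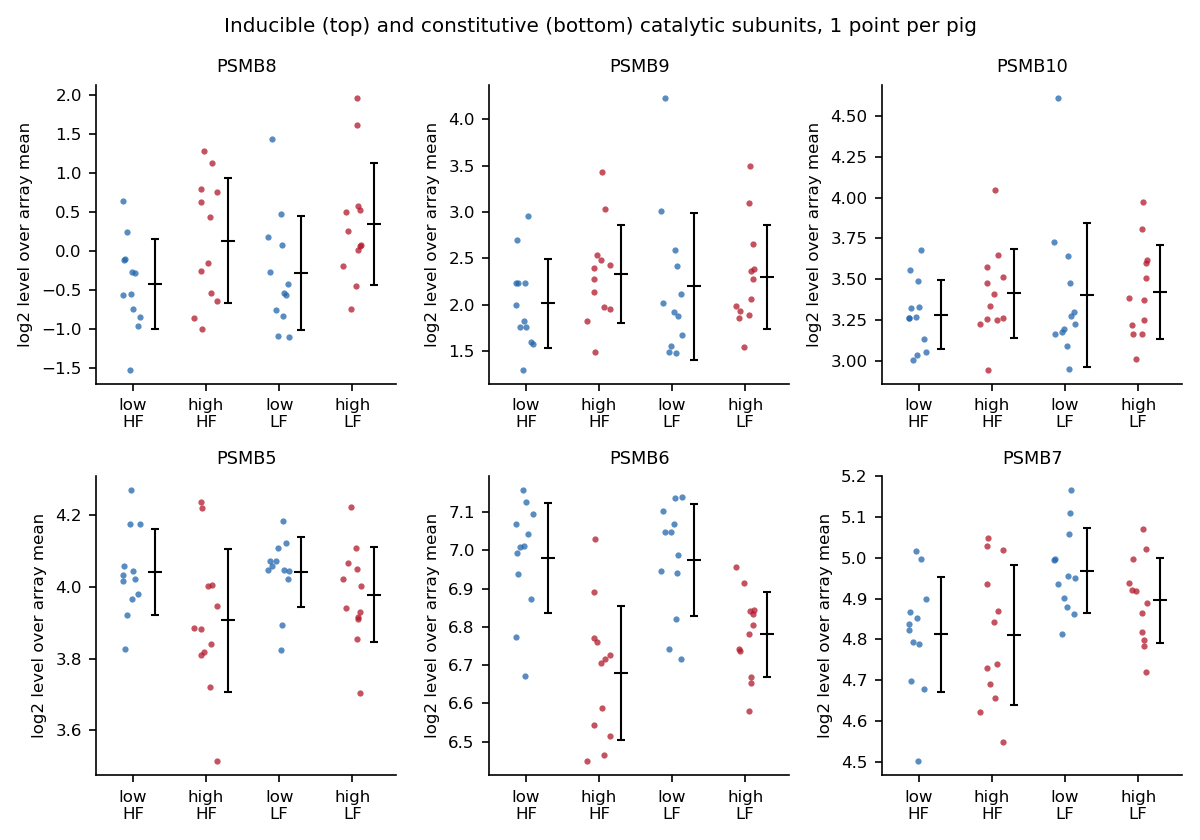
Level of the representative probe (log2, relative to the array mean) in each of the 48 pigs, by line and diet, for the constitutive and immunoproteasome catalytic subunits. PSMB6 is lower and PSMB8 higher in high RFI pigs, with overlapping groups, and PSMB8 and PSMB9 spread more within a group than PSMB5 to PSMB7.

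Pigs of 1 group differed more in PSMB8 and PSMB9 than in the constitutive catalytic subunits. The within-group SD was 0.66 to 0.73 for the 3 PSMB8 probes and 0.60 to 0.64 for the 2 PSMB9 probes. The 4 PSMB10 probes, at 0.28 to 0.32, lay close to the median of 0.26 over all tested probes. The 8 constitutive catalytic probes had SDs of 0.13 to 0.18, and the median over all members was 0.18. In bulk muscle, fewer cells of a type and less RNA per cell cannot be told apart. Markers of leukocytes, which use the immunoproteasome constitutively, had probes that were also higher, as had markers of other cell types. For all marker counts given here, the share over all tested probes was 6.57% higher and 9.85% lower. Of 27 tested probes of 11 leukocyte genes, 11 were higher and 0 lower in high RFI pigs, with a median difference of 0.43. The mean level of these probes was -2.24 to -0.71 in low RFI and -1.96 to 0.74 in high RFI pigs on HF, and -1.81 to -0.39 and -1.58 to 0.05 on LF. The calls were on the macrophage genes LYZ (4 of 4 probes), AIF1 (3 of 3), CD14 (2 of 2), CD163 (1 of 6) and CSF1R (1 of 1). PTPRC, present on all leukocytes, and the T cell gene CD3E had no called probe, and CD4 had no tested one. Of 30 tested adipocyte probes, 10 were higher and 0 lower, with a median of 0.21 between the lines, 0.45 on HF and -0.16 on LF. These calls were on FABP4 (8 of 8 probes) and LIPE (2 of 4), and ADIPOQ, LEP and PLIN1 had none. The mean level of the adipocyte probes was -0.83 to 0.68 in low RFI and -0.09 to 1.47 in high RFI pigs on HF, and -0.67 to 1.21 and -0.47 to 1.09 on LF. Of 29 fibroblast probes, 4 were higher and 0 lower (COL1A1 and COL1A2, list median 0.15), with mean levels of 2.13 to 3.02 over the 4 groups. Of 19 endothelial probes, 2 were higher and 0 lower (both of TEK, list median 0.05), and of 3 red blood cell probes 1 was higher (SLC4A1). The part of these cell types in the PSMB8 result was not tested.

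To compare the exchange of subunits within a pig, each immunoproteasome subunit was taken relative to the constitutive subunit it replaces, as a difference of log2 levels. Because the level of 1 probe cannot be set against another's, only differences between groups of this quantity have a meaning. PSMB8 relative to PSMB5 was -5.69 to -3.36 (median -4.45) in low RFI and -5.21 to -2.53 (median -3.87) in high RFI pigs on HF, and -5.19 to -2.61 (median -4.50) and -4.96 to -2.08 (median -3.83) on LF. The lines overlapped on both diets. The ratio was higher by 0.69 (SE 0.22, n = 48) in high RFI pigs, two-sided permutation p = 0.00324, and p = 0.00972 after adjustment over the 3 ratios. It was 0.69 on HF and 0.70 on LF. PSMB9 relative to PSMB6 was -5.87 to -4.09 (median -5.01) in low RFI and -5.54 to -3.16 (median -4.45) in high RFI pigs on HF, and -5.49 to -2.82 (median -5.10) and -5.37 to -3.34 (median -4.56) on LF. It was higher by 0.45 (SE 0.18, adjusted permutation p = 0.0218), with 0.62 on HF and 0.29 on LF. PSMB10 relative to PSMB7 differed by 0.11 (SE 0.10, permutation p = 0.259) and did not pass. Both ratios that passed hold a subunit with a line call of its own (PSMB8 in the first, PSMB6 in the second), so they are not independent of those calls.

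**Figure D3:**
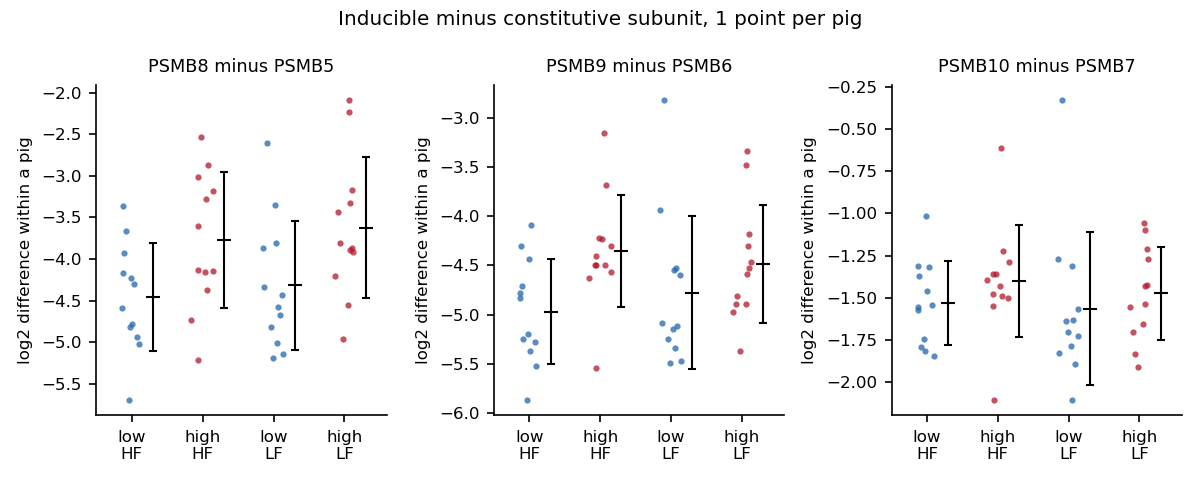
Level of each immunoproteasome subunit relative to the constitutive subunit it replaces (log2 difference) in the 48 pigs, by line and diet. PSMB8 relative to PSMB5 and PSMB9 relative to PSMB6 are higher in high RFI pigs by 0.69 and 0.45, and PSMB10 relative to PSMB7 by 0.11, which did not pass.

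PA28, the interferon-inducible cap that opens the core, is formed by PSME1 and PSME2. PSME1 went the other way from PSMB8. Its representative probe (A_72_P035626) was at 3.25 to 3.80 (median 3.56) in low RFI pigs and 2.83 to 4.03 (median 3.27) in high RFI pigs on HF, and at 3.39 to 4.01 (median 3.62) in low RFI pigs and 3.15 to 3.96 (median 3.35) in high RFI pigs on LF. The high RFI medians were the lower ones, within overlapping ranges. The level fell by 0.24 (SE 0.07, limma adjusted p = 0.0166). The other 2 PSME1 probes, at -0.18 and -0.16, did not pass (limma adjusted p = 0.0916 and 0.14), although all 3 were below 0 within all 6 slides. PSME2 was at 4.16 to 4.80 (median 4.40) in low RFI pigs and 3.996 to 5.002 (median 4.33) in high RFI pigs on HF, and at 4.26 to 5.21 (median 4.46) in low RFI pigs and 4.13 to 4.98 (median 4.37) in high RFI pigs on LF, and its 2 probes differed by -0.05 and -0.09 (limma adjusted p = 0.63 and 0.404). In RefSeq both genes lie next to each other with only EMC9 between them.

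Across pigs, the immunoproteasome and PA28 genes varied together within groups. Correlations were taken between deviations from the group mean over 48 pigs, for 16 gene pairs in all, with Benjamini-Hochberg adjustment of permutation p over the 16. All 10 pairs among PSMB8, PSMB9, PSMB10, PSME1 and PSME2 passed, with r from 0.55 (PSMB8 with PSME1) to 0.93 (PSMB9 with PSMB10) and adjusted permutation p of at most 0.000189. Their rho was 0.50 to 0.85, and r without the 2 pigs farthest from the median of the first gene was 0.44 to 0.89. PSMB8 with PSMB9 gave r = 0.77 (Spearman's rho 0.77, and r = 0.68 without the 2 pigs farthest from the median of PSMB8). PSMB9 with PSMB10 gave rho 0.85 and, without the 2 farthest pigs, r = 0.89. Within single scan days r for this last pair was 0.92 and 0.94, and within single slides 0.86 to 0.99. Within slides of 8 pigs the PSMB8 pairs were less even, and PSMB8 with PSMB10 ranged from -0.41 to 0.90. One pig, low RFI LF replicate 11, was the highest of all 48 in PSMB9 (4.23), PSMB10 (4.61) and PSME2 (5.21), and the highest of its group in PSMB8 (1.45).

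The constitutive subunits also moved together, less closely. PSMB6 with PSMB7 gave r = 0.60 (rho 0.50, and r = 0.50 without the 2 farthest pigs) and PSMB5 with PSMB7 gave r = 0.55 (rho 0.59, and r = 0.44), and both passed. PSMB5 with PSMB6 gave r = 0.41 (rho 0.36, and r = 0.32 without the 2 farthest pigs; adjusted permutation p = 0.00991), but r was 0.19 after quantile normalization and 0.24 with slide as a block, and neither passed. None of the 3 exchange pairs passed by Pearson's r. PSMB5 with PSMB8 gave r = -0.26 (permutation p = 0.102, adjusted 0.117), but by rho, at -0.35, it passed (permutation p = 0.0226, adjusted 0.0258), and r was -0.43 without the 2 farthest pigs. By r this pair passed under 6 of the alternative settings, with r between -0.37 and -0.31. PSMB6 with PSMB9 gave r = -0.03 (rho -0.05, permutation p = 0.866), and PSMB7 with PSMB10 gave r = 0.04 (rho 0.09, permutation p = 0.805), and both fell on either side of 0 across the alternative settings.

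**Figure D4:**
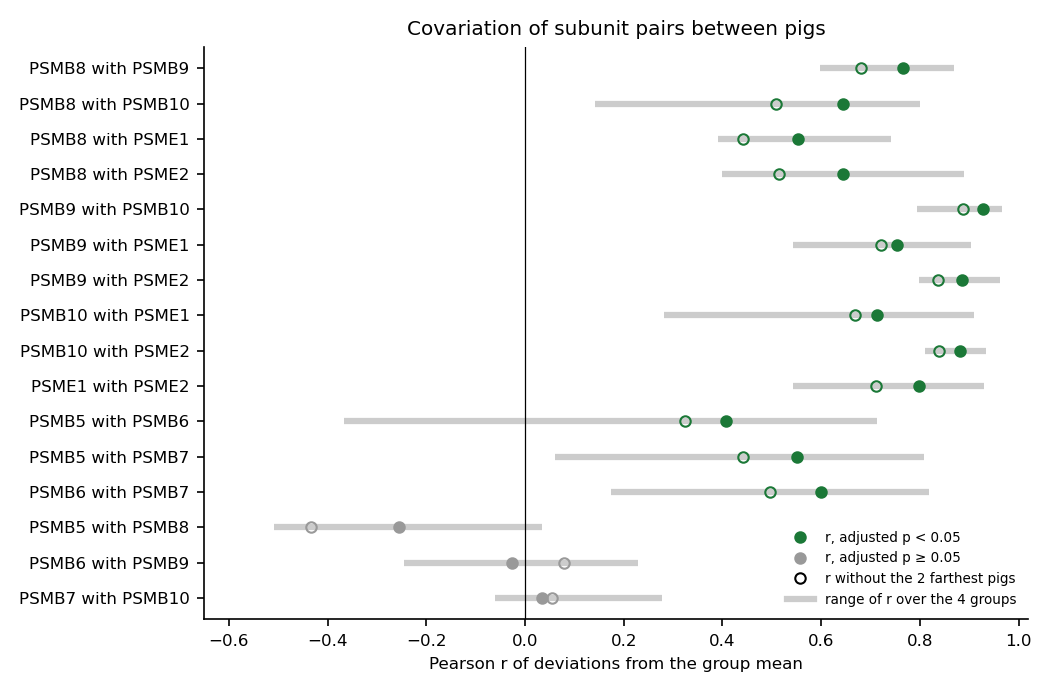
Pearson's r of deviations from the group mean over 48 pigs for the 16 gene pairs. The 10 pairs of immunoproteasome and PA28 genes lie between 0.55 and 0.93, the 3 constitutive pairs between 0.41 and 0.60, and the 3 exchange pairs between -0.26 and 0.04.

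In the α ring, the gate of the core, PSMA4 was the single gene with calls, and its probes disagreed in direction. Probe A_72_P176096 was at 3.95 to 4.40 (median 4.14) in low RFI pigs and 3.71 to 4.77 (median 4.44) in high RFI pigs on HF, and at 3.90 to 4.41 (median 4.16) in low RFI pigs and 3.90 to 4.81 (median 4.48) in high RFI pigs on LF. Its high RFI medians were higher, within overlapping ranges. The difference was 0.26 (SE 0.07, limma adjusted p = 0.00684), above 0 within 5 of 6 slides. The probe A_72_P599663 is printed because its level went the opposite way in the same pigs.
PSMA4 A_72_P599663: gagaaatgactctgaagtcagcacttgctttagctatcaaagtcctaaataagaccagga
It was at 3.42 to 3.81 (median 3.59) in low RFI pigs and 3.17 to 3.75 (median 3.44) in high RFI pigs on HF, and at 3.43 to 3.75 (median 3.56) in low RFI pigs and 3.18 to 3.69 (median 3.49) in high RFI pigs on LF. Here the high RFI medians were the lower ones. The level fell by 0.14 (SE 0.04, limma adjusted p = 0.0182), and the remaining probe (A_72_P629201) fell by 0.16 (SE 0.05, limma adjusted p = 0.0127). After normexp background correction the falls of these 2 probes no longer passed (limma adjusted p = 0.101 and 0.0691, with differences of -0.10 and -0.13). Across pigs of 1 group the 3 probes still correlated positively, at 0.46 to 0.82, so no single direction can be given for PSMA4. The other 4 tested α genes (PSMA2, PSMA3, PSMA5 and PSMA6) differed by -0.08 to 0.10, and the median over the 12 α ring probes was -0.06. None of the 17 probes of the structural β genes PSMB1 to PSMB4 passed (-0.10 to 0.11), nor did the thymus-type subunit PSMB11 (-0.09).

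The 6 ATPase genes of the 19S base did not differ detectably between the lines. None of their 18 probes passed, with differences from -0.15 to 0.04 and a median of 0.02. Among the 11 non-ATPase genes, 1 of 26 probes was higher and 4 lower, which is 3.85% and 15.4% (19.2% in all) beside 6.57%, 9.85% and 16.4% of all tested probes, and so near the background. These calls were on PSMD1, the large scaffold subunit of the base, and on PSMD13, a subunit of the lid.

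PSMD1 had 8 tested probes, which did not move alike. The probes here are printed because 3 of them share 21 bases, in capitals, and all 3 were lower in high RFI pigs, whereas the fourth was higher.
PSMD1 A_72_P613951: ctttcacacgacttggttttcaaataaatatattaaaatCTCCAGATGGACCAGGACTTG
PSMD1 A_72_P189146: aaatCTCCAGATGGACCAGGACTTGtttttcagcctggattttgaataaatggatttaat
PSMD1 A_72_P472637: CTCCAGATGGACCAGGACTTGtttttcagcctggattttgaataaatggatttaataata
PSMD1 A_72_P374764: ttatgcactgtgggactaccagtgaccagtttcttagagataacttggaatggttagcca
A_72_P613951 was at 1.91 to 2.63 (median 2.31) in low RFI pigs and 0.15 to 2.39 (median 1.76) in high RFI pigs on HF, and at 1.93 to 2.63 (median 2.34) in low RFI pigs and -0.11 to 2.52 (median 1.66) in high RFI pigs on LF. The low RFI pigs were tightly grouped, and the high RFI pigs reached far below them, with an SD of 0.21 against 0.72 on HF and 0.19 against 0.82 on LF. The level fell by 0.76 (SE 0.16, limma adjusted p = 0.000829), to 0.59 times that of low RFI pigs, which was the largest difference among the members. The overlapping probes A_72_P189146 and A_72_P472637 fell by 0.18 (SE 0.06, limma adjusted p = 0.0357) and by 0.20 (SE 0.06, limma adjusted p = 0.0149). Of these, A_72_P189146 did not pass without the 2 arrays that stood apart (-0.16, limma adjusted p = 0.0659). A_72_P374764 was higher by 0.20 (SE 0.06, limma adjusted p = 0.0206). The remaining 4 probes differed by at most 0.13 and did not pass. Within groups, A_72_P613951 correlated with its overlapping probes at 0.65 and 0.71 and with the others at 0.03 to 0.19.

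**Figure D5:**
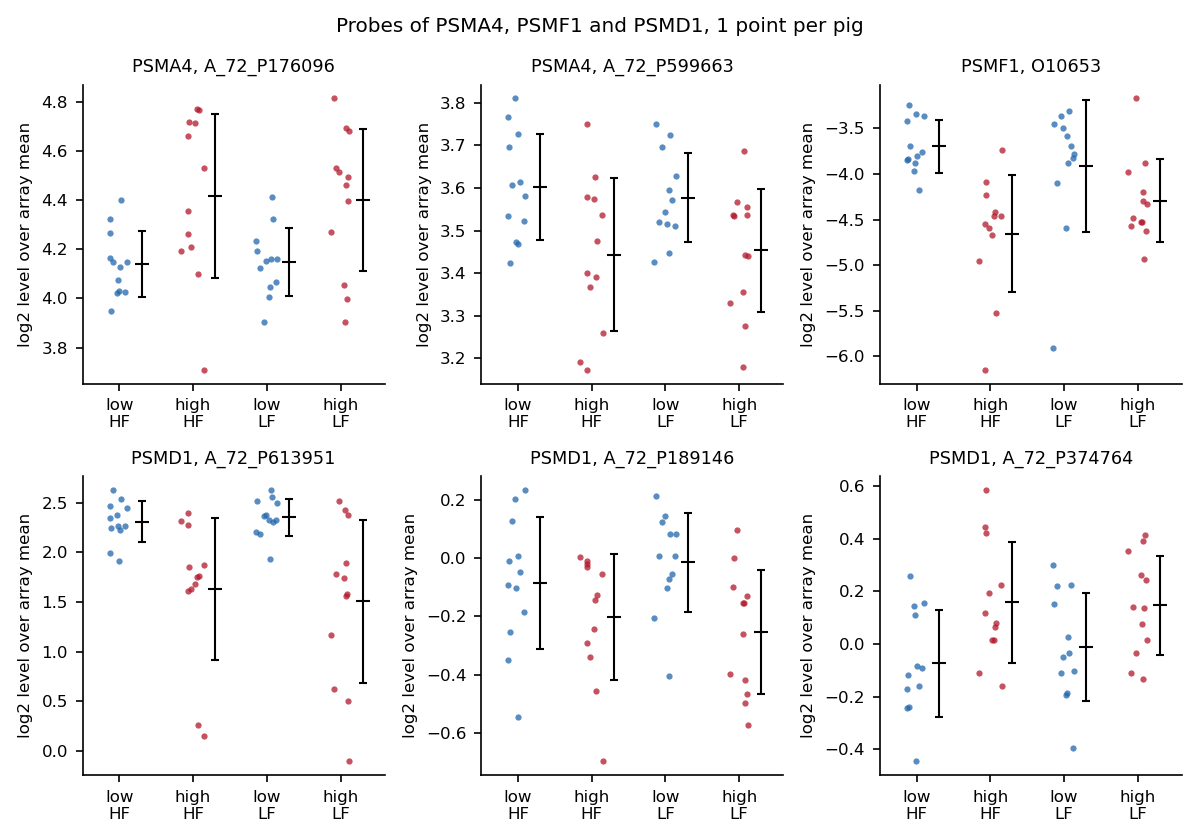
Levels (log2, relative to the array mean) in the 48 pigs, by line and diet, of probes of 1 gene that differed in direction or size. For PSMD1 the probe A_72_P613951 shows a wide downward spread in high RFI pigs, and the 2 PSMA4 probes shift in opposite directions.

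PSMD13 also had probes that did not move alike. Probe O8966 was at -2.30 to -1.32 (median -1.75) in low RFI pigs and -2.93 to -1.46 (median -2.18) in high RFI pigs on HF, and at -2.64 to -1.37 (median -1.90) in low RFI pigs and -2.85 to -1.31 (median -2.27) in high RFI pigs on LF, below the array mean in every pig. The level fell by 0.36 (SE 0.11, limma adjusted p = 0.0247), while the other PSMD13 probe differed by -0.02 (limma adjusted p = 0.709), and the correlation of the pair within groups was 0.11. In all, 29 proteasome genes had several probes: for 13 genes all lay below 0, for 8 all above, and for 8 on both sides. A call on every tested probe was seen for 5 genes, of which PSMF1 and PSMG4 had a single probe and PSMA4 had calls in both directions. The other genes were PSMB6 and PSMB8, each with all calls in the same direction.

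PSMG4, an assembly chaperone that helps to build the α ring, was lower in high RFI pigs. Its probe O11593 was at 4.98 to 5.37 (median 5.11) in low RFI pigs and 4.70 to 5.16 (median 4.84) in high RFI pigs on HF, and at 4.96 to 5.30 (median 5.10) in low RFI pigs and 4.74 to 5.10 (median 4.95) in high RFI pigs on LF. The lines overlapped in part on both diets. The level fell by 0.22 (SE 0.04, limma adjusted p = 8.14e-05), with differences of -0.40 to -0.10 within slides. The other 5 tested chaperone genes (PSMG1, PSMG2, PSMG3, PSMD9 and PSMD10) lay between -0.01 and 0.11, and none passed. PSMF1, a proteasome inhibitor protein, was read by 1 dim probe (O10653), well above background on 9 and 8 of 12 arrays of low RFI pigs on HF and LF and on 4 and 5 of 12 arrays of high RFI pigs. Its level was -4.18 to -3.24 (median -3.78) in low RFI pigs and -6.15 to -3.74 (median -4.51) in high RFI pigs on HF, and -5.91 to -3.31 (median -3.74) in low RFI pigs and -4.94 to -3.17 (median -4.40) in high RFI pigs on LF. The probe reached the required 12 arrays only through the low RFI line, where it was the higher one, so its values are a description and carry no test. The difference was -0.67 between the lines, -0.96 on HF and -0.38 on LF, and -0.18 between the lines after normexp background correction. The activators PSME3 and PSME4 differed by -0.08 to 0.12 and did not pass, with 1 PSME4 probe fitted on 47 arrays. PSMC3IP, outside the proteasome, fell by 0.23 (SE 0.06, limma adjusted p = 0.00891).

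Genes around the proteasome were taken from lists. Of the proteasome partners and assembly factors, 0 of 33 probes were higher and 1 lower, namely USP14, the deubiquitinase of the 19S cap (O9341, -0.21 (SE 0.06, limma adjusted p = 0.00784)), with a list median of -0.06. That is 3.03% lower, beside 9.85% of all tested probes. The array held no probe named POMP, the core's maturation factor. Among the genes that control proteasome expression, 0 of 13 probes were higher and 5 lower, with a median of -0.20. That is 38.5% lower, beside 9.85% of all tested probes, but the 13 probes read only 5 genes. The calls were on 4 of 7 probes of NGLY1 (-0.34 to -0.24), the deglycosylating enzyme that activates the transcription factor NFE2L1. The probe of MAFK, a binding partner of that factor, was also called (-0.20, limma adjusted p = 0.041). NFE2L2 and MAFG had no called probe. NFE2L1 itself differed by 0.13 (limma adjusted p = 0.18) and did not pass. In ubiquitin supply and delivery, 0 of 45 probes were higher and 6 lower, with a median of -0.04. That is 13.3% lower, beside 9.85% lower and 6.57% higher of all tested probes. In either direction it is 13.3% beside 16.4%. With a median close to the -0.03 of all probes, this list lay near the background. The called probes included those of the ubiquitin fusion gene RPS27A (-0.13) and of the conjugating enzymes UBE2D2 (3 of 4 probes) and UBE2D3 (-0.14). In class I antigen processing, 10 of 36 probes were higher (27.8%, beside 6.57% of all tested probes) and 0 lower, with a median of 0.19. The calls were on B2M, the light chain of class I molecules (8 of 9 probes, 0.29 to 0.39), on NLRC5, the transactivator of class I genes (O8413, 0.68 (SE 0.12, limma adjusted p = 7.28e-05), 1 of 2 probes), and on the peptide transporter TAP1 (A_72_P172206, 0.47 (SE 0.15, limma adjusted p = 0.0208), 1 of 3 probes). For this list too the part of the leukocyte markers was not tested.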

How the data were processed

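The authors deposited Agilent Feature Extraction output per array, with background-subtracted intensity per spot (processed signal), beside a log2 table of 34472 probes. Its deposited values equalled log2 median signals minus the median of the array. The header of the scanner output names Feature Extraction 10.7.3.1, and the labels' processing notes name R 2.10.0. The genome build of the array was not given in the sources used here. Here, log2 processed signal was taken without outlier spots, averaged per probe, and expressed relative to the array's mean over the 42125 tested probes. Single missing values (169 in all) were left out of the fit of that probe. Group means were fitted with limma 3.58.1 in R 4.3.3, with Benjamini-Hochberg adjustment over all tested probes and a threshold of 0.05. The fit and the tests of ratios and pairs were checked on simulated data. Ratios and pairs used 100000 permutations (smallest p 1e-05) in Python 3.11.15, within diet or within group. The representative probe of a gene is the one with the highest mean level. Named were the catalytic and PA28 genes, up to 3 called probes per structural group and direction, genes whose probes differed in sign, and up to 3 called genes per list. Members and lists were chosen with earlier results of these data known. The alternatives changed the scaling, the background correction, the dim-probe filter, outlier spots, slide or scan day as a block, the deposited table, the arrays standing apart, and the mean of a gene's probes. Leaving out each pig was added after seeing the data. The number of arrays limits the precision.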

Additional observations from a re-analysis of the deposited data

How the results depend on the processing

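The number of member probes that passed between the lines, with PSMF1 counted where it was tested, was 18 to 21 under 10 of the 11 alternative settings and 9 without any filter on dim probes. On HF that setting left 4, against 7. On LF, against 2, it left 0, quantile normalization 1, normexp correction 1 and slide as a block 6. Leaving out each pig in turn gave 16 to 21 between the lines, 5 to 8 on HF, 1 to 4 on LF, and 0 for diet and for line by diet. On LF the count was 1 without high RFI LF replicates 4, 8, 11 or 12, and 4 without low RFI LF replicate 1 or high RFI LF replicate 9. Of 359 values of single probes under the alternatives, 15 no longer passed and 1 newly passed. No probe that passed in the main setting changed sign, and signs of the other probes were not counted. Without the dim-probe filter the calls on PSME1 (limma adjusted p = 0.0584), PSMD13 (0.0633), PSMB8, 3 of 4 on PSMD1 and 2 of 3 on PSMA4 were lost. The ratios lay at 0.56 to 0.69, 0.40 to 0.48 and 0.05 to 0.12, each on its side of the threshold throughout. The cause of these shifts was not tested. No paired analysis was possible because the replicate numbers pair no pigs. Signals near the background limit PSMF1 and the dim probes of PSMA3 and PSMB2.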
